A study of Danio rerio with 9 samples.

Results

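The genes described here drive the cell cycle and DNA replication in zebrafish. They were taken from a list of 58 symbols, matched to the Ensembl gene IDs of the expression table without regard to case. This matching uses no measured value, but the list was chosen with earlier results of these data known. Of these symbols, 48 were found, and mcm6 and rrm2 each matched 2 gene IDs, which gave 50 genes among the 29291 in the table. The other 10 symbols (ccne1, ccne2, mcm2, mcm7, mcm10, orc2, orc4, orc5, cdc20 and chek1) were not analysed here. All 50 genes reached 1 RPKM (reads scaled to gene length and to the mapped reads of the library) in at least 1 library, the filter that 19868 genes passed.

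A dividing cell licenses its replication origins by loading the MCM helicase with the help of ORC, cdc6 and cdt1, and geminin (gmnn) blocks a further round of loading. The helicase is then switched on with cdc45 and the GINS complex, polymerases copy the DNA with the sliding clamp PCNA, and ribonucleotide reductase supplies the building blocks. Cyclins bound to cyclin-dependent kinases drive the transitions, and mitotic kinases, motors and spindle checkpoint proteins carry the cell through division. The zebrafish egg is loaded with maternal mRNA for rapid, nearly synchronous cleavages without gap phases, and these give way to slower cycles around the start of zygotic transcription.

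Whole animals of the AB strain were sampled at 9 stages to follow gene expression through embryonic and early larval development. Cleavage was sampled at the 64-cell stage, 2 hours after fertilization (h), the blastula at oblong-sphere (3.6 to 4 h), the gastrula at 50%-epiboly (5.25 h) and segmentation at 15-somite (16.5 to 17.5 h), followed by Prim-25 at 36 h, Long-pec at 48 h, Pec-fin at 60 h, Protruding-mouth at 72 h and larvae at 1 week. Each stage had 1 poly(A) RNA library, pooled from about 2000 individuals, so every comparison sets 1 library against another, no difference was tested, and a difference between stages cannot be told apart from one between libraries. In RNA from whole animals, fewer cells of a type and less RNA per cell cannot be told apart.

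Each list of stage markers except the embryonic globins had its highest summed level at the stage it was chosen for, but not every list was low elsewhere. The globins, chosen for Prim-25, summed to 7947 RPKM there, 10261 RPKM at Long-pec and 8719 RPKM at Pec-fin. The maternal gene btg4, an adaptor for mRNA deadenylation, had 252 RPKM at 64-cell and 257 RPKM at oblong-sphere. The organizer gene chrd was highest at 50%-epiboly (75.3 RPKM), the muscle regulator myog at 15-somite (83.6 RPKM) and the trypsin-like gene prss59.2 at 1 week (6610 RPKM). The embryonic globin hbbe3 had 3603 RPKM at Prim-25. The 10 pancreatic enzyme genes, markers of a differentiated organ, summed to 70.8 RPKM at 64-cell, 0.471 RPKM at oblong-sphere, 88.1 RPKM at 15-somite, 18.5 RPKM at Prim-25 and 5.90 RPKM at Pec-fin, and 9 of the 10 were at 1 RPKM or more at 64-cell. Recovered mapped reads ranged between 123311411 at 64-cell and 205507592 at Protruding-mouth, and Pec-fin read as the mean of 2 runs of 171010360 and 59857652 reads. At 1 RPKM or more, each value of the 50 genes outside Pec-fin rested on at least 152 reads, and its exact 95% Poisson interval reached at most 17.2% above it. These intervals cover counting error only.

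The 50 genes went through 4 phases. They were most abundant in the first 2 libraries, then shifted in composition between oblong-sphere and 50%-epiboly. At that step 8 of the 50 were at least 2-fold higher and 24 lower, against 14.4% and 31.1% of all genes past the filter. The lower count depended on the scaling. From 15-somite to Pec-fin each moved by less than 2-fold between neighbouring stages on a log2(RPKM + 1) scale. That scale shrinks the changes of low genes, some of which moved further in plain RPKM. Plain ratios of later to earlier level reached 11.0% (Pec-fin against Long-pec) and 349% (Long-pec against Prim-25). Few of all genes past the filter passed 2-fold at these steps either. At Prim-25 6.23% were higher and 4.96% lower, at Long-pec 0.81% and 0.403%, and at Pec-fin 0.785% and 0.72%. The 50 genes were then mostly lower at each of the last 2 stages. Their summed RPKM was 6239, 5251, 2853, 2327, 2114, 2369, 1711, 731 and 243 in order of age. As a share of the summed RPKM of the whole table this was 2.01% at 64-cell, 0.809% at 50%-epiboly, 0.534% at Prim-25, 0.186% at Protruding-mouth and 0.0449% at 1 week. Much of the early sum came from the A and B cyclins, which summed to 2885 RPKM at 64-cell and 400 RPKM at 50%-epiboly. Of the 50 genes, 19 were highest at 64-cell, 14 at oblong-sphere, 6 at 50%-epiboly, 7 at 15-somite, 3 at Long-pec and 1 at 1 week. Of all genes past the filter, 17.1% were highest at 64-cell, 19.9% at oblong-sphere and 9.06% at 50%-epiboly. A further 8.01% were highest at 15-somite, 3.20% at Long-pec and 27.2% at 1 week. At 1 week 44 of the 50 had their lowest value, as had 16.7% of all genes past the filter.

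**Figure D1:**
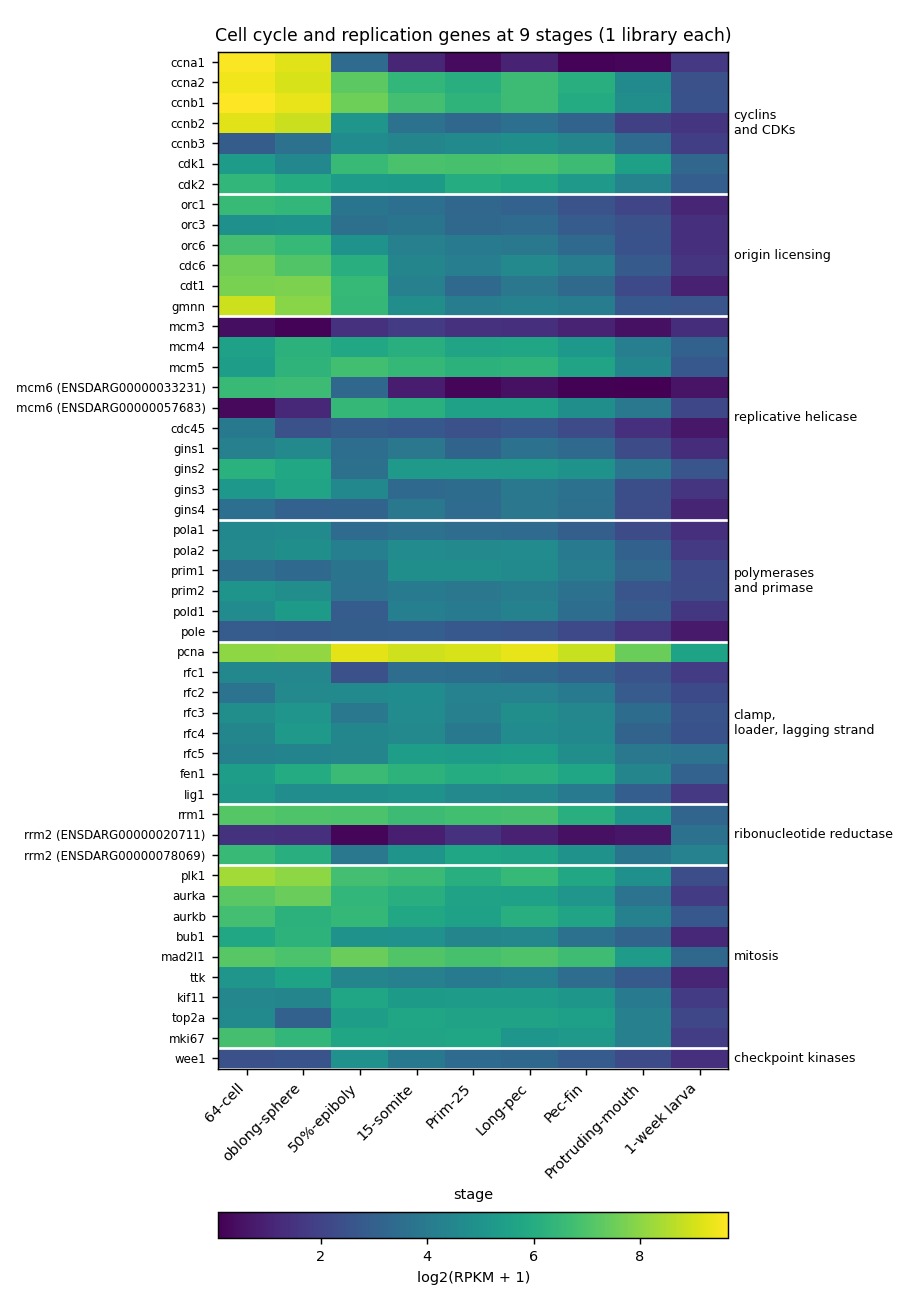
Level of each of the 50 genes (rows, grouped by role) in the library of each stage (columns, in order of age); colour gives log2(RPKM + 1). Most cyclins and all licensing genes are brightest at 64-cell and oblong-sphere, and most rows are darkest at 1 week, where 44 of the 50 have their lowest value.

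The median of the 50 genes was 38.5 RPKM at 64-cell, 49.2 RPKM at oblong-sphere, 26.6 RPKM at 50%-epiboly and 25.4 RPKM at 15-somite. It was 19.7 RPKM at Prim-25, 7.503 RPKM at Protruding-mouth and 2.55 RPKM at 1 week. Among the 19868 genes past the filter, that median stood at the 90.0th percentile of levels at 64-cell, the 88.2nd at Prim-25, the 71.0th at Protruding-mouth and the 38.3rd at 1 week. At 1 week the typical cell cycle gene was thus below the middle of the transcriptome.

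The cyclins led the maternal pool. The A and B cyclins activate cyclin-dependent kinases for replication and for entry into mitosis. ccnb1, a mitotic B cyclin, had 808, 652, 184, 110.2, 78.4, 99.1, 62.3, 26.9 and 4.54 RPKM from the first stage to the last. ccna2, the A cyclin of proliferating cells, had 704, 547, 149, 84.6, 67.7, 99.5, 68.4, 24.5 and 4.39 RPKM. Both were still above 60 RPKM at Pec-fin. ccna1, an A cyclin of the egg and early embryo in Xenopus, had 769, 600.0, 9.72, 1.16, 0.280, 0.977, 0.107, 0.189 and 2.18 RPKM. Its level was thus of the same size as that of ccna2 in the first 2 libraries and far below it in the next 6. It held 52.2% of the A cyclin RPKM at 64-cell, 52.3% at oblong-sphere, 6.13% at 50%-epiboly and between 0.156% and 1.349% at the stages up to Protruding-mouth. At 1 week its share was 33.1%, of a sum of 6.57 RPKM.

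Among the B cyclins, ccnb1 held the largest share at every stage, with 57.3% at oblong-sphere and 76.1% at 50%-epiboly. Below it ccnb2 and ccnb3 changed places, with ccnb2 above ccnb3 up to 50%-epiboly and under it from 15-somite on. ccnb2 had 597, 473, 32.2, 12.0, 8.67, 11.0, 7.77, 2.71 and 1.84 RPKM, and its share of the B cyclin RPKM was 41.6% at oblong-sphere, 13.3% at 50%-epiboly and 8.38% at 15-somite. ccnb3, a B-type cyclin best known from meiosis in mouse, ran the other way with 6.41, 11.9, 25.5, 20.8, 23.3, 27.9, 20.8, 9.75 and 2.59 RPKM. Its share was 0.454% at 64-cell, 10.6% at 50%-epiboly, 21.1% at Prim-25 and 28.9% at 1 week.

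The partner kinases differed in their course. cdk1, the kinase that triggers mitosis, had 39.9, 22.2, 92.5, 120.1, 114.9, 120.1, 98.3, 45.1 and 8.36 RPKM, and was 4.17-fold higher at 50%-epiboly than at oblong-sphere (log2 difference 2.01). cdk2, which works with cyclins E and A in S phase, was highest at 64-cell like ccna2, ccnb1 and ccnb2, and had 85.4, 62.8, 39.7, 38.3, 62.7, 55.8, 35.8, 19.3 and 6.57 RPKM. The summed RPKM of the A and B cyclins was 72.3 times that of cdk1 at 64-cell and 103 times at oblong-sphere. It was 4.32 times that of cdk1 at 50%-epiboly and between 1.42 and 1.99 times from 15-somite on. The ratio of cdk2 to cdk1 was 2.14 at 64-cell, 2.83 at oblong-sphere, 0.429 at 50%-epiboly and 0.785 at 1 week.

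**Figure D2:**
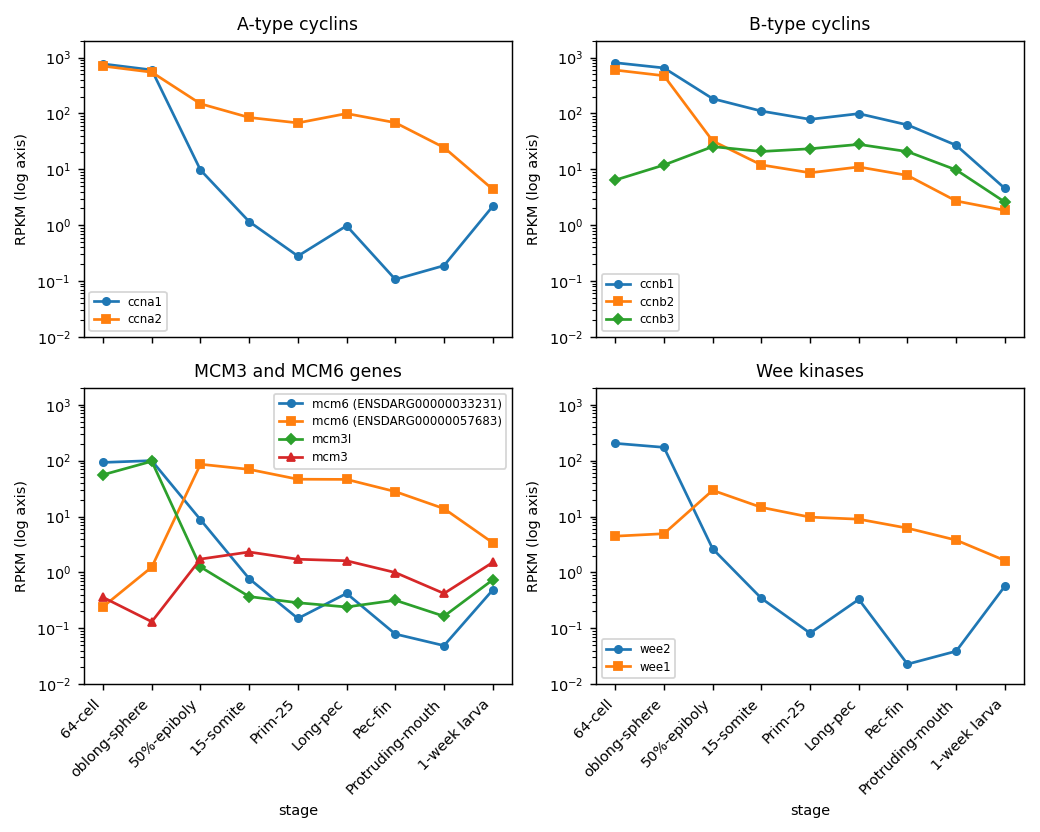
RPKM (log axis) of related genes in the library of each stage, in order of age, in panels for A-type cyclins, B-type cyclins, MCM3 and MCM6 genes, and Wee kinases. In 3 panels (A cyclins, MCM3 and MCM6, Wee kinases) a gene that is abundant at 64-cell and oblong-sphere drops below its relative at 50%-epiboly, as with the mcm6 genes (8.78 against 86.2 RPKM); ccnb2 also drops there, and ccnb3 is higher.

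The 2 gene IDs named mcm6, a subunit of the MCM helicase ring, traded places almost completely. ENSDARG00000033231 had 92.9, 100.1, 8.78, 0.772, 0.150, 0.421, 0.0788, 0.0489 and 0.484 RPKM. ENSDARG00000057683 had 0.243, 1.24, 86.2, 69.8, 46.5, 46.1, 27.9, 13.8 and 3.40 RPKM. The first held 98.8% of their sum at oblong-sphere and 9.24% at 50%-epiboly, while the sum itself was 95.02 RPKM at 50%-epiboly, against 101 RPKM at oblong-sphere. By 1 week the first held 12.5%, of a sum of 3.88 RPKM. At 50%-epiboly, ENSDARG00000057683 was 69.4-fold higher than at oblong-sphere, the largest positive difference among the 50 genes at that step (log2 difference 5.28). Xenopus also has separate maternal and zygotic MCM3 and MCM6 genes. The lowest of these values, 0.0489 RPKM at Protruding-mouth, rested on 26 reads (95% interval 0.0320 to 0.0717 RPKM).

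The genes wee1 and mcm3 had near relatives outside the list that were high when they were low. These relatives, wee2 and mcm3l, were chosen after the values of the 50 genes had been seen. wee1, a kinase that holds cdk1 inactive, had 4.45, 4.92, 29.5, 14.6, 9.75, 8.96, 6.19, 3.78 and 1.63 RPKM. wee2, its oocyte counterpart in mammals, had 204, 173, 2.64, 0.344, 0.0818, 0.329, 0.0228, 0.0389 and 0.568 RPKM, and so held 97.2% of their sum at oblong-sphere and 8.23% at 50%-epiboly. By 1 week wee2 held 25.8%, of a sum of 2.20 RPKM. The wee1 level was 5.98-fold higher at 50%-epiboly than at oblong-sphere (log2 difference 2.36), but the sum of both kinases was 32.1 RPKM at 50%-epiboly, against 178 RPKM at oblong-sphere.

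mcm3, another subunit of the ring, stayed between 0.131 and 2.32 RPKM at all 9 stages, far below mcm4 and mcm5. mcm3l, a gene named for its likeness to mcm3, had 55.9 RPKM at 64-cell, 97.4 RPKM at oblong-sphere, 1.25 RPKM at 50%-epiboly and at most 0.736 RPKM later. From 50%-epiboly on, neither reached 3 RPKM. Genes with near-identical copies can share reads, and how such reads were counted is not given in the sources used here.

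At the low end of these courses, ccna1, ENSDARG00000033231 (mcm6) and wee2 were higher in the Long-pec library than in those on either side of it, and higher again at 1 week. The 6 maternal oocyte genes used as a stage check summed to 1.85 RPKM at Prim-25, 4.97 RPKM at Long-pec, 0.676 RPKM at Pec-fin and 9.33 RPKM at 1 week. Of these 6, the number at 1 RPKM or more was 0 at Prim-25, 2 at Long-pec, 0 at Pec-fin and 3 at 1 week. The 10 pancreatic enzyme genes summed to 68.8 RPKM at Long-pec, more than at Prim-25 and Pec-fin. The part of these markers in the low values of ccna1, ENSDARG00000033231 (mcm6), wee2 and mcm3l was not tested.

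The licensing genes shared a maternal high point. The 6 of them were orc1, orc3 and orc6 of the origin recognition complex, the loaders cdc6 and cdt1, and the inhibitor gmnn. cdt1 had 212, 215, 88.7, 18.1, 9.29, 13.7, 9.55, 3.59 and 0.948 RPKM. gmnn had 483, 244, 86.3, 27.3, 16.6, 18.7, 16.6, 5.49 and 5.01 RPKM. Both were already lower at 50%-epiboly and lower again at 15-somite, where, among genes with at least 10 RPKM in either library, cdt1 had the most negative difference (-2.23), followed by cdc6 (-1.69) and gmnn (-1.62). cdc6 had 192, 132, 69.3, 20.8, 17.2, 23.0, 16.6, 5.86 and 1.82 RPKM. The ratio of gmnn to cdt1 was 2.27 at 64-cell, between 0.973 and 1.79 from oblong-sphere to Protruding-mouth, and 5.28 at 1 week.

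The ORC subunits had most of their early difference by 50%-epiboly. orc1 had 93.2, 84.1, 12.9, 10.8, 8.41, 7.51, 4.71, 3.22 and 1.14 RPKM. orc6 had 113, 89.6, 29.7, 17.7, 15.1, 14.1, 9.19, 4.54 and 1.60 RPKM, and orc3 ranged between 29.9 RPKM at oblong-sphere and 1.66 RPKM at 1 week. All 6 licensing genes were at least 2-fold lower at 50%-epiboly than at 64-cell, a threshold that 22 of the 50 genes and 30.3% of all genes past the filter met in that direction. At least 2-fold higher were 9 of the 50 genes and 14.2% of all genes. With median-of-ratios scaling, which sets the libraries level by the median ratio of their genes, 15 of the 50 were lower and 11 higher, against 27.5% and 19.2% of all genes, so the larger share of lower calls among the 50 depended on the scaling. At 4-fold 10 of the 50 were lower and 2 higher, against 13.9% and 6.57% of all genes.

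Of the other helicase genes, mcm4, mcm5, cdc45 and those of GINS each matched 1 gene ID, and no second copy of them was examined. mcm5 had 43.0, 77.3, 108, 87.5, 73.9, 78.9, 49.3, 21.2 and 5.57 RPKM, highest at 50%-epiboly. mcm4 had 46.7, 73.6, 55.8, 69.2, 50.2, 51.0, 35.5, 16.9 and 7.27 RPKM. From 50%-epiboly on, mcm4, mcm5 and ENSDARG00000057683 (mcm6), whose products sit in the same ring, were within 1.26-fold to 2.14-fold of each other in every library. This set leaves out mcm3 and the other mcm6 gene. With both included, the spread in those libraries was between 15.0-fold at 1 week and 625-fold at Pec-fin. The ring genes mcm2 and mcm7 were not analysed. cdc45, which activates the ring, had a low RPKM, with 14.3 RPKM at 64-cell, 4.47 RPKM at oblong-sphere and between 0.630 and 6.46 RPKM afterwards. Its recovered reads at 64-cell (23407) were more than those of mcm5 (13887), so its low RPKM went with a longer recovered length. That length was not checked against the transcript, so the cdc45 level may not compare with those of other genes. The 4 GINS genes spread widely: gins2 had 73.1, 55.4, 11.3, 36.9, 37.6, 36.1, 30.1, 13.4 and 5.06 RPKM, while gins4 stayed between 7.57 and 14.0 RPKM up to Pec-fin. gins2 also had the largest positive difference of the 50 genes at 15-somite against 50%-epiboly (1.62).

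The polymerase and primase genes lay between 0.681 and 38.3 RPKM at all stages. The 6 genes encode the catalytic and B subunits of polymerase alpha (pola1, pola2), both primase subunits (prim1, prim2) and the catalytic subunits of polymerases delta (pold1) and epsilon (pole). Their median was 22.9, 25.9, 10.9, 16.5, 14.3, 17.2, 11.2, 5.46 and 2.19 RPKM from the first stage to the last. A dip at 50%-epiboly was visible in pold1, with 24.9, 38.3, 6.24, 17.3, 14.9, 18.4, 10.6, 5.81 and 2.11 RPKM. pole stayed between 5.06 and 6.60 RPKM from 64-cell to Long-pec, and had 3.50 RPKM at Pec-fin, 1.88 RPKM at Protruding-mouth and 0.681 RPKM at 1 week. prim1 was highest at 15-somite (27.8 RPKM), against 9.31 RPKM at oblong-sphere.

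pcna, the sliding clamp, was the most abundant of the 50 genes at every stage after oblong-sphere. It had 258, 271, 609, 502, 535, 636, 466, 182 and 49.0 RPKM, with its highest value at Long-pec. Its loader, replication factor C, was much lower, and pcna stood at 11.8 times the median of rfc1 to rfc5 at oblong-sphere, 29.7 times at 50%-epiboly and 10.5 times at 1 week. rfc1, the large subunit, had 22.6, 21.9, 4.46, 10.4, 10.0, 8.81, 6.98, 4.74 and 2.32 RPKM. rfc5, a small subunit, had 18.7, 19.97, 20.5, 42.0, 40.8, 42.5, 27.0, 14.2 and 12.2 RPKM. Of the lagging strand enzymes, the flap nuclease gene fen1 was highest at 50%-epiboly (95.6 RPKM), and the ligase gene lig1 stayed between 21.8 and 37.1 RPKM up to Long-pec.

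Ribonucleotide reductase makes deoxyribonucleotides from a large (rrm1) and a small (rrm2) subunit. rrm1 had 139.9, 129.6, 123, 98.9, 108, 114, 68.3, 31.8 and 8.20 RPKM. The rrm2 gene ENSDARG00000078069 had 94.0, 66.6, 13.9, 31.4, 52.2, 47.6, 30.3, 12.8 and 19.2 RPKM. The other rrm2 gene, ENSDARG00000020711, had 1.77, 1.64, 0.147, 0.835, 1.73, 0.927, 0.420, 0.588 and 11.7 RPKM. It was thus the only one of the 50 genes with its highest value at 1 week, where it held 37.9% of the rrm2 RPKM. The ratio of rrm1 to both rrm2 genes was 8.75 at 50%-epiboly, between 2.01 and 2.38 from Prim-25 to Protruding-mouth, and 0.265 at 1 week. A further small subunit gene chosen after these values were seen, the p53-induced rrm2b, had 5.85, 3.77, 23.4, 69.3, 38.2, 26.2, 21.4, 18.3 and 16.6 RPKM, so at 1 week each of the 3 small subunit genes stood above rrm1.

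The 9 mitosis genes split into those that were highest in the first 2 libraries and those that were not. plk1, a kinase of mitotic entry and spindle assembly, had 325, 261, 109, 95.3, 66.0, 88.8, 56.0, 28.7 and 3.98 RPKM. aurka, a kinase of the centrosome and spindle, had 145, 176, 84.8, 67.4, 46.7, 46.7, 32.8, 12.1 and 2.38 RPKM. The other 4 of the first kind were the kinase genes aurkb, bub1 and ttk and the proliferation marker mki67, which had 113.7 RPKM at 64-cell, 52.0 RPKM at Prim-25 and 2.52 RPKM at 1 week. Of the second kind, top2a, the topoisomerase that untangles sister chromatids, had 23.5, 7.32, 42.2, 51.8, 47.3, 46.8, 44.0, 18.2 and 3.34 RPKM. kif11, a spindle motor, had 21.6, 20.6, 51.9, 38.0, 39.1, 39.5, 34.0, 15.4 and 2.33 RPKM. mad2l1, a spindle checkpoint protein, was highest at 50%-epiboly (176 RPKM), against 121 RPKM at oblong-sphere.

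The comparisons between stages are differences in log2(RPKM + 1), taken as later minus earlier stage. The added 1 shrinks the differences of low genes. A gene was called higher or lower past a threshold of 1 on this scale (2-fold). Between oblong-sphere and 64-cell, 0 of the 50 genes were higher and 2 were lower, against 3.1% higher and 3.3% lower among all genes past the filter. The 2 lower genes were top2a (-1.56) and cdc45 (-1.49). gmnn came next (-0.98). At a threshold of 4-fold, 0 were higher or lower, against 0.372% higher and 0.685% lower among all genes.

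Between 50%-epiboly and oblong-sphere, 8 of the 50 genes were higher and 24 lower, against 14.4% and 31.1% of all genes. The median difference of the 50 was -0.84, against -0.09 for all genes. The lower genes were led by ccna1 (-5.81), ccnb2 (-3.84) and ENSDARG00000033231, mcm6 (-3.37). The higher ones were the other mcm6 gene, top2a (2.38), wee1 (2.36), cdk1 (2.01), mcm3 (1.27), pcna (1.17), kif11 (1.29) and ccnb3 (1.03). With median-of-ratios scaling, which adds 0.36 to each log2 RPKM difference at this step, 8 were higher and 14 lower, against 19.0% and 28.9% of all genes. The lower count thus depended on the scaling. At 4-fold the counts were 4 higher and 8 lower, against 6.87% and 14.7% of all genes.

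**Figure D3:**
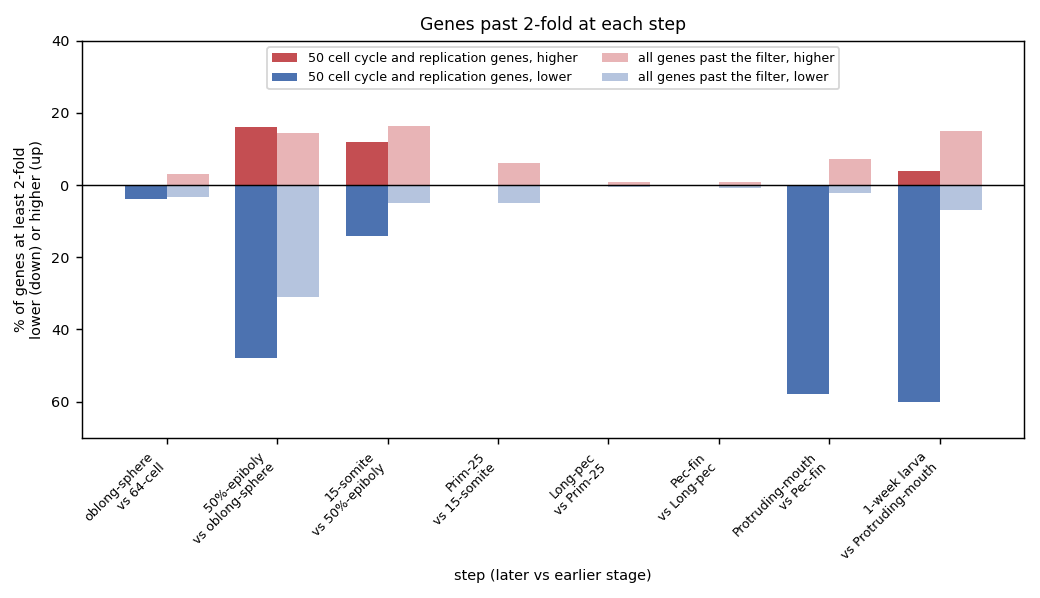
Share of genes (per cent) at least 2-fold higher (up) or lower (down) at each of the 8 steps between neighbouring stages, later against earlier; dark bars give the 50 cell cycle and replication genes, pale bars all 19868 genes past the filter. The 50 genes have a larger share of lower calls than all genes at 50%-epiboly (48% against 31.1%, though not with median-of-ratios scaling), at 15-somite (14% against 4.91%) and at the last 2 steps (58% against 2.1%, and 60% against 6.86%), and none at Prim-25, Long-pec and Pec-fin.

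Between 15-somite and 50%-epiboly, 6 of the 50 were higher and 7 lower, against 16.4% and 4.91% of all genes. The count of lower genes was 14 and that of higher genes 1 with median-of-ratios scaling, against 14.0% lower and 10.6% higher among all genes, and the shift is -0.63 at this step. Besides gins2, the named higher genes were pold1 (1.34) and ENSDARG00000078069, rrm2 (1.11). With prim1, rfc1 and rfc5 these made up the 6. The 7 lower genes were cdt1, cdc6, gmnn, gins3, ccnb2, ccna1 and ENSDARG00000033231 (mcm6). At 4-fold 0 were higher and 3 lower, against 4.37% and 1.12% of all genes.

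On the log2(RPKM + 1) scale, no gene of the 50 passed the 2-fold threshold between neighbouring stages from 15-somite to Pec-fin. Most of the 50 genes were still a little lower at Prim-25 and again at Pec-fin. None was 2-fold higher or lower between Prim-25 and 15-somite (all genes 6.23% and 4.96%), between Long-pec and Prim-25 (0.81% and 0.403%) or between Pec-fin and Long-pec (0.785% and 0.72%). In plain RPKM, without the added 1, the highest and lowest of these 4 libraries were within 2-fold of each other for 40 of the 50 genes. The share among all genes was 47.9%. These genes differed in level, with a median at Prim-25 of 19.7 RPKM for the 50 and 2.61 RPKM for all genes. The part of level in the 2 shares was not tested. Among the largest single differences were a lower cdt1 at Prim-25 (-0.89), a higher rfc4, a small clamp loader subunit, at Long-pec (0.75) and a lower bub1 at Pec-fin (-0.81). The median difference was -0.24 at Prim-25, 0.10 at Long-pec and -0.45 at Pec-fin, against -0.06, 0.02 and -0.01 for all genes. Below 0 were 40 of the 50 at Prim-25, 17 at Long-pec and 49 at Pec-fin, and the share of all genes below 0 was not counted. The medians of all genes as deposited were also below 0 at Prim-25 and Pec-fin. A median below 0 as deposited was thus not particular to the 50, but theirs lay further below 0 at both stages. With median-of-ratios scaling the medians of the 50 were -0.18, 0.05 and -0.38, against -0.03, 0.003 and 0.014 for all genes.

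Between Protruding-mouth and Pec-fin, 29 of the 50 were lower and 0 higher, where 2.1% of all genes were lower and 7.18% higher. The median difference was -1.06, against 0.13 for all genes, and with median-of-ratios scaling 38 were lower, against 4.75% of all genes, whose median was then -0.03. Genes of every large role took part: 5 of 7 cyclins and kinases, 3 of 6 licensing, 6 of 10 helicase, 1 of 6 polymerase and primase, 6 of 8 clamp and lagging strand, and 6 of 9 mitosis genes were lower. The largest differences belonged to ccna2 (-1.44), gmnn (-1.44) and rfc4 (-1.42). pcna had 182 RPKM at Protruding-mouth, against 466 RPKM at Pec-fin. No gene of the 50 passed 4-fold in either direction, where 0.74% of all genes were higher and 0.136% lower.

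Between the 1-week larva and Protruding-mouth, 30 of the 50 were lower and 2 higher, against 6.86% and 15.1% of all genes, and 37 were lower with median-of-ratios scaling, against 14.0% of all genes. The roles had different medians at this step, and no difference between roles was tested. All 9 mitosis genes were lower, with a median of 18.4% of the Protruding-mouth level and a range of 13.9% (plk1) to 30.1% (aurkb). The cyclins and kinases had a median of 26.6%, the licensing genes one of 35.3%, the clamp and lagging strand genes one of 48.9%, the helicase genes one of 39.9% and the polymerase and primase genes one of 38.4%. The genes with the most negative differences were plk1 (-2.57), mki67 (-2.43) and ccnb1 (-2.33). The 2 higher genes were ENSDARG00000020711, rrm2 (3.005), and ccna1 (1.42). At 4-fold 1 was higher and 8 were lower, against 5.23% and 0.443% of all genes.

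**Figure D4:**
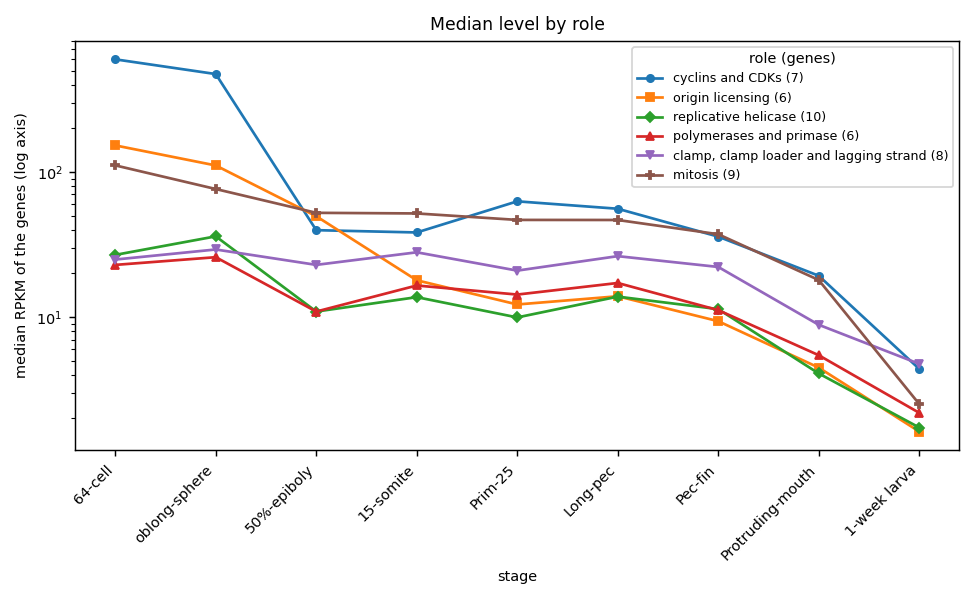
Median RPKM (log axis) of the genes of each role in the library of each stage, in order of age; the number of genes is given in the legend. By single step, the cyclin median drops most between oblong-sphere (473 RPKM) and 50%-epiboly (39.7 RPKM). The licensing median drops both early, to 17.9 RPKM at 15-somite against 111 RPKM at oblong-sphere, and in the last step, to 1.63 RPKM against 4.48 RPKM. The mitosis median drops most in the last step, to 2.52 RPKM at 1 week against 18.0 RPKM at Protruding-mouth.

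Set against Prim-25, 46 of the 50 genes were at least 2-fold lower at 1 week and 2 were higher, where 11.6% of all genes were lower and 25.8% higher. With median-of-ratios scaling these shares were 23.8% and 14.9%, while 46 of the 50 were again lower and 1 was higher. The median of the 50 was 12.0% of the Prim-25 level. The mitosis genes had 4.83% to 11.8% of it, with a median of 6.14%. At or under 10% were 8 of these 9 and 17 of the 50, and the share of all genes there was not counted. The medians of the other roles were 10.5% for cyclins and kinases, 12.1% for licensing, 14.2% for helicase, 13.5% for polymerase and primase, and 21.4% for clamp and lagging strand genes. The most negative differences were those of mki67 (-3.92), ccnb1 (-3.84) and aurka (-3.82). pcna was 10.9-fold lower, with 49.0 RPKM at 1 week, against 535 RPKM at Prim-25. The clamp loader subunit gene rfc4 kept 31.9% of its Prim-25 level, the highest share among the clamp and lagging strand genes. The 4 genes that were not lower were ENSDARG00000020711 (rrm2), ccna1, mcm3 and ENSDARG00000033231 (mcm6), of which the first 2 were higher. At 4-fold 33 were lower and 1 was higher, against 2.8% and 8.91% of all genes.

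**Figure D5:**
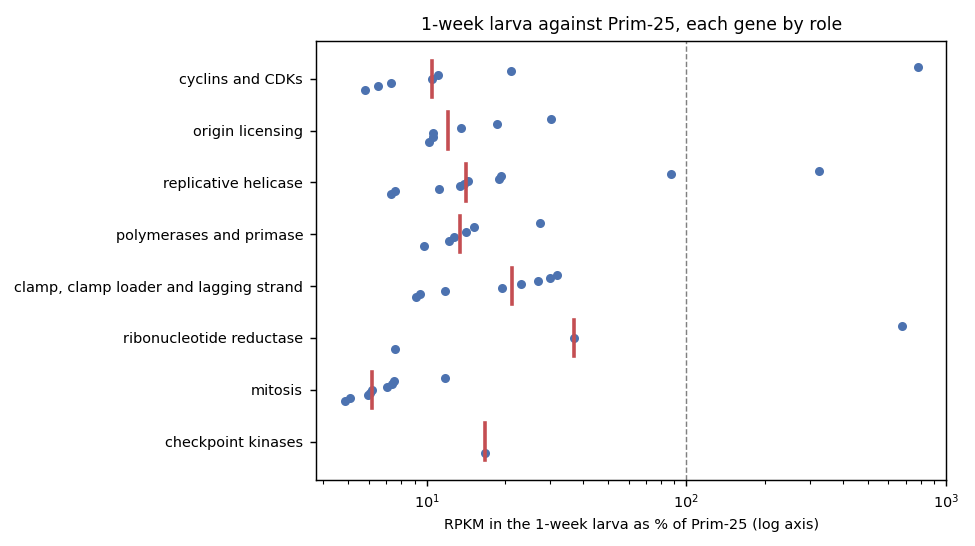
RPKM in the 1-week larva as a percentage of Prim-25 (log axis) for each of the 50 genes (points), by role; the red bars mark the median of each role and the dashed line marks an equal level. The 9 mitosis genes have the lowest median, 6.14%, and only ENSDARG00000020711 (rrm2), ccna1 and ENSDARG00000033231 (mcm6) lie to the right of the dashed line.

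Set against 64-cell, 46 of the 50 were lower at 1 week and 2 were higher, against 29.9% and 39.9% of all genes, with a median difference of -3.13 for the 50 genes and 0.39 for all genes. With median-of-ratios scaling 47 of the 50 were lower and 2 higher, against 39.9% lower and 29.9% higher among all genes, and the medians were -3.62 for the 50 and -0.27 for all genes. The median 1-week level of the 50 was 8.08% of that at 64-cell. The most negative differences were those of ccna1 (-7.92), ccnb2 (-7.72) and ccnb1 (-7.19). At 4-fold 41 were lower and 1 was higher, against 16.4% and 20.5% of all genes. The 1-week library was also the one in which the 10 pancreatic enzyme genes summed to 28521 RPKM, against 147 RPKM at Protruding-mouth and 18.5 RPKM at Prim-25. Since RPKM is relative to all mapped reads, genes of this abundance take reads from others, and the part of this in the lower values was not tested. With the 100 most abundant genes left out of the scaling, the median difference between 1 week and Prim-25 was -2.84, against -2.63 for the values as deposited.

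Other cell cycle genes from a wider list of 94 gene IDs, of which 93 passed the filter, were counted in the same way. At 50%-epiboly 11 were higher and 34 lower than at oblong-sphere, which is 11.8% and 36.6% of the 93 and lies near the 14.4% and 31.1% of all genes. The survivin gene birc5b, which serves chromosome segregation, had the most negative difference of those named, with 1.70 RPKM at 50%-epiboly, against 46.0 RPKM at oblong-sphere. recql4, a helicase of replication initiation, had 1.23 RPKM at 50%-epiboly, against 24.4 RPKM at oblong-sphere. dbf4, the activator of the origin-firing kinase cdc7, went the other way, with 25.2 RPKM at 50%-epiboly, against 2.55 RPKM at oblong-sphere.

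At Protruding-mouth 1 of these 93 genes was higher and 22 (23.7%) were lower than at Pec-fin, against 7.18% and 2.1% of all genes. The lower ones were led by fbxo5, an inhibitor of the anaphase-promoting complex, with 3.64 RPKM at Protruding-mouth, against 15.5 RPKM at Pec-fin. At 1 week 4 were higher and 53 (57.0%) lower than at Protruding-mouth, against 15.1% and 6.86% of all genes. Mitosis genes had the lower median there as well, a difference that was not tested. Of 43 other mitosis genes 35 were lower, with a median of 24.2% of the Protruding-mouth level over the 42 with a value above 0 there, and of 22 other replication genes 10 were lower, with a median of 38.9%. tpx2, a spindle assembly factor, had 2.65 RPKM at 1 week, against 14.3 RPKM at Protruding-mouth. Against Prim-25, 74 of the 93 (79.6%) were lower at 1 week and 5 were higher, against 11.6% and 25.8% of all genes. Among the higher ones, rad21a, a cohesin subunit, had 27.6 RPKM at 1 week, against 11.6 RPKM at Prim-25, and fzr1b, an activator of the anaphase-promoting complex in late mitosis and G1, had 14.0 RPKM at 1 week, against 3.39 RPKM at Prim-25.

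The 50 genes did not share 1 profile. Over the 9 libraries, 35 of them had a Pearson correlation of at least 0.8 with the mean of their scaled log2(RPKM + 1) profiles, to which each contributes. The share of all genes past the filter at 0.8 or more was not counted, so the 35 cannot be set against it. Among the 50, the values under 0.1 were those of ENSDARG00000020711, rrm2 (-0.60), mcm3 (-0.12) and ENSDARG00000057683, mcm6 (0.09). Of 7123 other genes with a unique symbol and at least 10 RPKM in some library, the 10 closest to that mean profile were dhfr (0.991), MIS12 (0.986), kif2c (0.985), MCMBP (0.983), dlgap5 (0.983), pane1 (0.982), chaf1a (0.982), NCAPD3 (0.982), gtse1 (0.981) and HELLS (0.981). dhfr makes the folate cofactor for thymidylate synthesis, kif2c is a microtubule-depolymerizing kinesin, chaf1a is a subunit of a replication-coupled chromatin assembly factor, and NCAPD3 is a condensin subunit. All these points come from the same 9 libraries and share their depth and scaling, so the correlations are descriptions. dhfr itself had 24.0, 23.6, 15.6, 16.5, 16.4, 17.3, 12.2, 7.21 and 4.12 RPKM.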

How the data were processed

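Poly(A) RNA from whole animals was fragmented and sequenced as SOLiD libraries, per the labels' protocols, so transcripts with short tails may be under-represented. The authors deposited 1 table of RPKM values for 29291 Ensembl genes at 9 stages, on Zv9 per the submitters' processing notes; the sources used here name no aligner, counting program or annotation release. Of the gene IDs, 19580 matched a symbol.

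Mapped reads and gene lengths were recovered from whole-number steps in the deposited RPKM (relative tolerance 1e-09), which gave a length for 15493 of the 19868 genes past the filter (78.0%) and for all 50 described. The Pec-fin column was read as the mean of 2 runs, with a log2 difference between them of SD 0.071 over 11985 genes. The recovery was tested on simulated data.

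Genes needed 1 RPKM in at least 1 library. Differences used log2(RPKM + 1). Any of the 50 genes could be named; beside each step stand up to 3 each way with at least 10 RPKM in the higher library, and up to 2 each way of the wider list. The members, lists and thresholds were chosen with earlier results of these data known. Alternatives were no filter, a pseudocount of 0.1, scaling by the median of ratios or after leaving out the 100 most abundant or the 13 mitochondrially encoded genes, either Pec-fin run alone, a 4-fold threshold and Spearman correlation. Python 3.11.15, numpy 2.4.6, pandas 2.3.3, scipy 1.17.1 and matplotlib 3.10.9 were used.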

Additional observations from a re-analysis of the deposited data

How the results depend on the processing

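No paired analysis was possible because each stage had 1 library. For the 50 genes, no median reversed its direction under any alternative other than the 15-somite median against 50%-epiboly named here, and no value moved without the filter or with either Pec-fin run alone. Over all genes, 7 medians changed sign with median-of-ratios scaling: they were 0.0037 at oblong-sphere (-0.0020 as deposited), -0.021 at 15-somite (0.18), 0.014 at Pec-fin (-0.014), -0.025 at Protruding-mouth (0.13), -0.28 at 1 week (0.0028), -0.27 at 1 week against 64-cell (0.39) and -0.24 at 1 week against Prim-25 (0.23). For brevity, counts are of the 50 genes at least 2-fold higher or lower, medians are log2 differences, and each step is named by its later stage unless 2 stages are given.

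With a pseudocount of 0.1, 1 gene was higher at oblong-sphere, 2 were lower at Prim-25, 2 higher at Long-pec, 2 lower at Pec-fin and 4 higher at 1 week, and the medians were -1.44 at 1 week, -3.59 at 1 week against 64-cell and -2.99 at 1 week against Prim-25. With median-of-ratios scaling, 14 were lower at 50%-epiboly, 14 lower and 1 higher at 15-somite and 1 higher at 1 week against Prim-25. The medians were then -0.50 at 50%-epiboly, -0.72 at 15-somite, -1.33 at Protruding-mouth, -1.35 at 1 week, -3.62 at 1 week against 64-cell, -3.07 at 1 week against Prim-25 and -0.34 at 50%-epiboly against 64-cell. Scaled without the 100 most abundant genes, 14 were lower at 50%-epiboly and 1 at Pec-fin. The medians were -0.52 at 50%-epiboly, 0.036 at 15-somite, -0.12 at Prim-25, -1.16 at Protruding-mouth, -1.35 at 1 week, -2.81 at 1 week against 64-cell, -2.84 at 1 week against Prim-25 and -0.41 at 50%-epiboly against 64-cell. Without mitochondrially encoded genes the medians were -0.049 at 15-somite, -1.28 at 1 week and -2.71 at 1 week against Prim-25. The small 15-somite median (-0.13 as deposited) was thus the value whose sign depended on the scaling.

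At 4-fold, 0 were lower at oblong-sphere, 8 lower and 4 higher at 50%-epiboly, 3 lower and 0 higher at 15-somite, 0 lower at Protruding-mouth and 8 lower and 1 higher at 1 week. Also at 4-fold, 1 was higher at 1 week against 64-cell, 1 higher at 1 week against Prim-25, and 10 lower and 2 higher at 50%-epiboly against 64-cell. The next 3 alternatives were chosen after seeing the data. Without mcm6 and rrm2, the median was -0.72 at 50%-epiboly and -3.22 at 1 week against 64-cell, and 1 gene was higher at 1 week, 0 at 1 week against 64-cell and 1 at 1 week against Prim-25. Protruding-mouth against Long-pec had a median of -1.50, and 1 week against Pec-fin one of -2.21. With Spearman's correlation 24 genes tied at rho 1, and the first 10 of them in gene order shared 0 with the 10 most alike genes. This overlap rests on where the tie was cut, since MCMBP has the rank order of the mean profile and was among the 24. The 10 most alike genes kept a rho of at least 0.917. The cause of the other shifts was not tested. The promoter motif alternative was not run. Counting error limits the values under 1 RPKM most, and the spread between animals or pools cannot be estimated from 1 library per stage.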

Other observations

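Regulators of the G1 phase, which the cleavage cycles lack, did not move as 1 group. Of 12 such genes (D cyclins, cdk4, cdk6, the RB family and E2F factors), 3 were at least 2-fold higher and 3 lower at 50%-epiboly than at oblong-sphere, where 14.4% of all genes past the filter were higher and 31.1% lower. rbl1, the p107 pocket protein, had 2.56, 3.70, 21.7, 12.7, 7.42, 7.87, 5.91, 3.45 and 2.27 RPKM from the first stage to the last. The retinoblastoma gene rb1 had 25.9, 24.7, 22.5, 18.8, 12.6, 12.5, 6.41, 5.08 and 1.73 RPKM. e2f8, a repressor of cell cycle genes, had 34.0 RPKM at 50%-epiboly, 13.6 RPKM at Prim-25 and 0.788 RPKM at 1 week, and cdk4 had 15.2 RPKM at 64-cell, 1.48 RPKM at Long-pec and 6.29 RPKM at 1 week. At 1 week 5 of the 12 were lower than at Protruding-mouth and 0 were higher, against 6.86% and 15.1% of all genes.

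Of the CDK inhibitor genes, cdkn1ca, a p57 homologue that restrains cyclin-dependent kinases, was low at 64-cell and far higher at 50%-epiboly. It had 0.751, 4.81, 66.0, 83.9, 63.6, 84.5, 108, 38.7 and 12.0 RPKM, so it was high in the same libraries as cdk1 and pcna and lower with them at the last 2 stages. cdkn2c, an inhibitor of cdk4 and cdk6, had 0.0773 RPKM at 64-cell, 3.26 RPKM at Long-pec and 0.979 RPKM at 1 week. Among 12 genes of checkpoints and repair, 9 were lower by 2-fold or more at 50%-epiboly than at oblong-sphere, against 31.1% of all genes. That step's lower calls depended on the scaling for the 50 genes, and this was not tested for these 12. The checkpoint kinase gene atr had 0.397 RPKM at 50%-epiboly, against 10.0 RPKM at oblong-sphere. These genes were picked after their values were seen.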
